A study of Jaculus jaculus and Mus musculus with 24 samples.

Results

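The proteasome genes described here are 49 of the 17641 features in the deposited count tables, namely all whose mouse transcript identifier pairs with a protein-coding symbol of the form Psma to Psmg followed by a number. By textbook role they comprise 8 subunits of the alpha ring, 7 of the beta ring, 4 catalytic subunits of immune and thymic proteasomes, 6 ATPases and 11 non-ATPase subunits of the regulatory cap, 5 activators and inhibitors, and 7 assembly factors. Psmc3ip also matches the symbol pattern, but it encodes a recombination protein and not a subunit. The 31 genes Psma1 to Psma7, Psmb1 to Psmb7, Psmc1 to Psmc6 and the 11 Psmd subunits of the cap make up the ordinary proteasome and are called the standard subunits below.

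RNA was sequenced from hindfoot muscle and from the flexor digitorum superficialis (FDS), a forelimb muscle, of the lesser Egyptian jerboa (Jaculus jaculus) and the mouse (Mus musculus). The jerboa is a bipedal rodent that loses the muscles within its hindfoot after birth, and the series asks which genes accompany that loss. Newborns (P0) and pups of postnatal day 3 (P3) gave each muscle of each species, so there were 24 libraries in 8 groups of 3. All groups are labelled normal, with no treatment or allele, the labels give no strain, and nothing says that replicates are different animals, so every p measures only the spread between these libraries, which may be technical. Foot muscle was isolated from sections and the FDS was dissected, in both species, so muscle and way of sampling cannot be told apart.

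The proteasome degrades proteins that have been tagged with ubiquitin. Its barrel-shaped core is built of alpha rings, which gate entry, and beta rings, which carry the cutting sites, and the regulatory cap binds the tag, removes it and unfolds the substrate with a ring of ATPases. In skeletal muscle this pathway removes myofibrillar protein during atrophy, in concert with muscle ubiquitin ligases such as Trim63.

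Library totals ran from 16734991 to 54689680 reads, and libraries of a group correlated across genes with r from 0.987 to 0.997 (24 pairs, genes not being independent replicates). The proteasome genes took between 0.449% (mouse forelimb at P0) and 0.659% (jerboa foot at P3) of the reads as group means. One library stood furthest from its group in these genes. The summed level of the standard subunits in mouse foot at P0 was 4912 CPM in replicate 1 against 3804 and 3866 CPM in replicates 2 and 3. The muscle fibre markers of that library summed to 42137 CPM against 31444 and 32400 CPM. Many counts and some sums that it moves are also given without it, a choice made after seeing the data. Replicate 1 of mouse forelimb at P0 was raised too, with standard subunits at 4226 CPM against 3803 and 3743 CPM. The counts and sums without the foot library keep this forelimb library. Levels are in CPM, the read count scaled to the normalised library size (mean ± SD, n = 3), which compare libraries and not genes. A count of 0 in 1 library allows a level of up to 0.0535 to 0.192 CPM (3 reads, counting error only). Changes are log2 fold changes ± SE, and a gene is called when edgeR's quasi-likelihood test gave an adjusted p under 0.05 over the 14448 genes tested. The test kept 48 of the 49 proteasome genes and left out Psmb11, the thymic catalytic subunit, which never exceeded 5 reads in a library. The sources used here do not state which gene models served for jerboa, so where a gene has next to no reads in jerboa, low expression and a missing or unmatched gene model cannot be told apart.

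At P3, the standard subunits were higher in the muscle of the jerboa foot than in that of its forelimb. Their summed level was 6083, 6207 and 6190 CPM in the foot libraries and 4643, 4773 and 4640 CPM in the forelimb libraries. The lowest foot library was above the highest forelimb library, and the means (6160 ± 67.2 against 4685 ± 76.1 CPM) differed by 31.5%. Of the 31 standard subunits 28 were called higher and 0 lower at an adjusted p under 0.05, where 67.9% of all genes tested were called, 35.9% higher and 32.1% lower. Psmd1, Psmd11 and Psmd14 were not called. All 31 had a positive log2 fold change, from 0.10 for Psmd11 to 0.81 for Psmb2, with a median of 0.41 against 0.04 over all genes tested. Of the 48 genes of the symbol pattern tested, 37 were called higher and 2 lower (Psme4 and Psmf1). Without Psmc3ip, which is no subunit, 36 of 47 were called higher and 2 lower. In 29 of the 31 the 3 foot libraries were all above the 3 forelimb libraries, as they were for 37.2% of all genes tested, and in 0 they were all below, against 33.7%. In whole muscle fewer cells of a type and less RNA per cell cannot be told apart.

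In the mouse at the same age the standard subunits summed to 4289, 4377 and 4475 CPM in foot against 4274, 4252 and 4531 CPM in forelimb, 2 groups that overlapped, with a ratio of 1.01. In mouse 3 of the 31 were called higher and 1 lower, where 27.3% of all genes were called higher and 25.3% lower, and the median log2 fold change was -0.00. With only the libraries compared in the fit, the mouse counts became 7 higher and 8 lower (15 and 11 over all members). Without any 1 library these mouse counts ran from 0 to 2 higher and from 0 to 1 lower, the 0 higher being without replicate 2 of foot or replicate 1 or 2 of forelimb, and the 0 lower without replicate 2 of foot or replicate 3 of forelimb. The foot libraries lay all above the forelimb libraries for 9 standard subunits and all below for 7, against 35.8% and 32.1% of all genes. The difference between the species was itself tested, as the jerboa log2 fold change minus that of the mouse. It was called positive for 24 of the 31 standard subunits and negative for 0, against 24.1% and 24.9% of all genes, with a median of 0.39 against 0.02 over all genes tested. Over the 48 tested genes, 27 differences were called positive and 2 negative, those of Psmf1 and Psmd9. Without any 1 of the libraries compared, 27 standard subunits were called higher in jerboa foot at P3, and between 19 and 23 differed between the species.

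At P0 the standard subunits of the jerboa moved in both directions. The sums were 5595, 5724 and 5888 CPM in foot against 5557, 5340 and 5159 CPM in forelimb, with foot above forelimb in every library but by only 7.17% in the mean. In jerboa at P0, 10 of the 31 were called higher in foot and 6 lower, against 31.2% and 34.8% of all genes (65.9% in either direction), and the values ranged from -0.85 (Psma6) to 0.88 (Psmb2). In the mouse at P0 the sums were 4912, 3804 and 3866 CPM in foot against 4226, 3803 and 3743 CPM in forelimb, with overlap. The mouse foot mean differed from that of forelimb by 6.88%, or by -2.27% without replicate 1 of foot. In the mouse at P0, 9 of the 31 were called higher and 3 lower, against 29.8% and 29.3% of all genes (59.0% in either direction). Without replicate 1 of mouse foot at P0 these mouse counts became 6 higher and 12 lower, and the lower count was 1 when replicate 1 of newborn mouse forelimb was left out. Foot libraries lay all above forelimb libraries for 11 standard subunits and all below for 5 in jerboa at P0, against 30.9% and 35.3% of all genes, and for 9 and 1 in mouse, against 30.8% and 30.4%. The difference between the species at P0 was called positive for 5 standard subunits and negative for 6, against 21.6% and 26.9% of all genes, and without replicate 1 of mouse foot it was positive for 14. That count was 2 or 3 without replicate 2 or 3 of mouse foot, replicate 1 of mouse forelimb, or replicate 2 or 3 of jerboa forelimb.

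The shares of all genes called higher and lower that are given above for each comparison are also the background of the counts by class below, where a class holds only 6 to 11 genes.

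**Figure D1:**
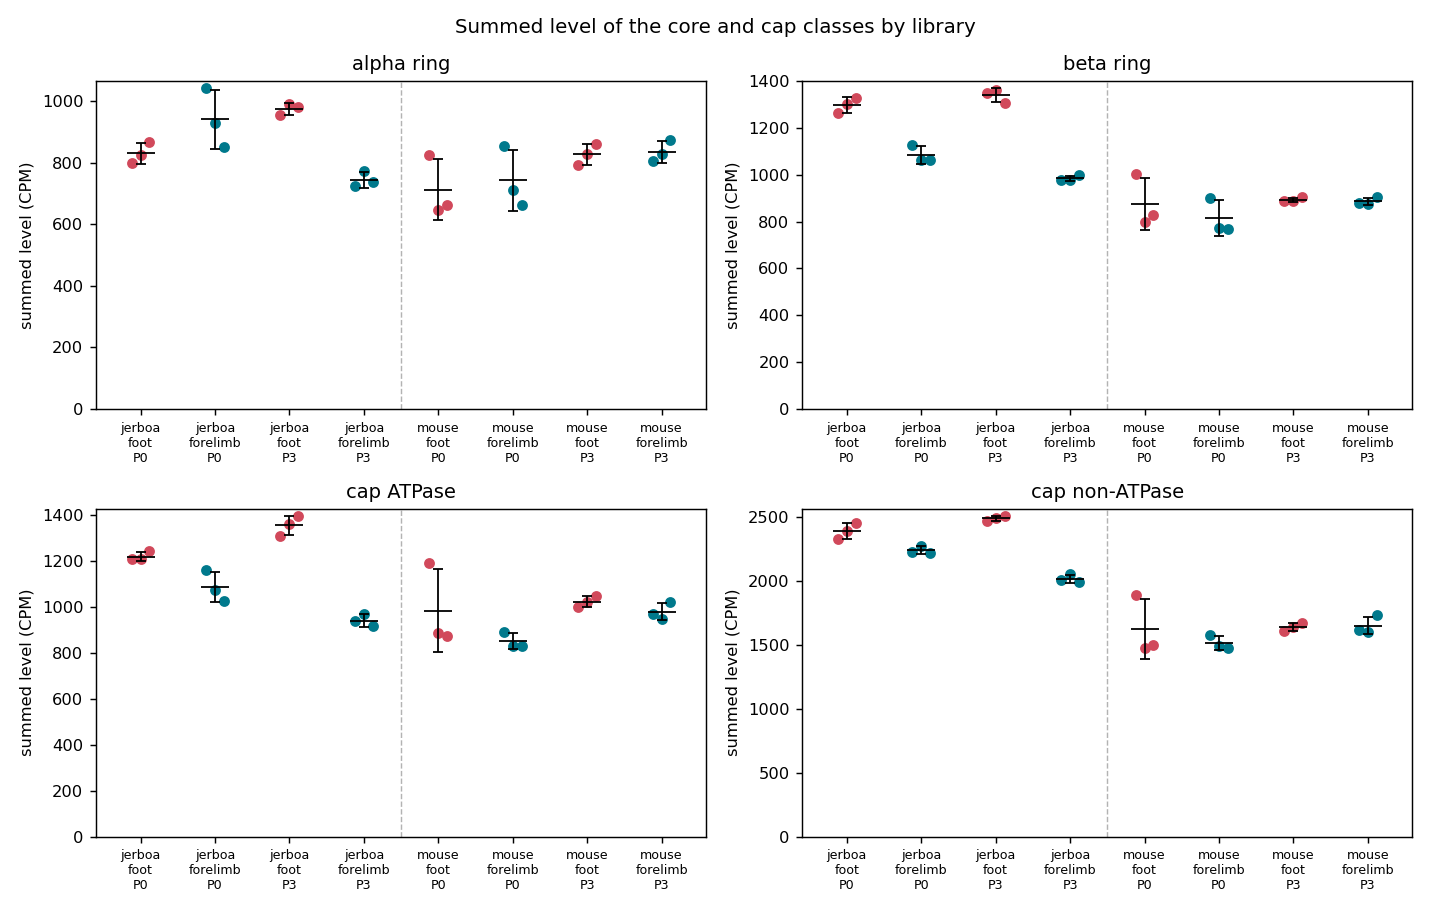
Summed level in CPM of the genes of each class in each of the 24 libraries, with jerboa left and mouse right of the dashed line. Points are libraries (red for foot, teal for forelimb), the long bar is the mean and the whiskers are the SD (n = 3). In jerboa at P3 the foot libraries lie above the forelimb libraries in all 4 classes, and replicate 1 of mouse foot at P0 lies above the rest of its group.

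The alpha ring was higher in jerboa foot at P3, with a median log2 fold change of 0.39. At P0 the median was -0.07, and the 3 of 8 genes called lower lay near the 34.8% of all genes. The 8 genes summed to 800, 824 and 868 CPM in foot against 1044, 928 and 852 CPM in forelimb at P0, with overlap. At P3 they summed to 954, 990 and 982 CPM against 723, 774 and 736 CPM, without overlap. In newborn jerboa 0 were called higher and 3 lower, namely Psma3 (-0.50 ± 0.11), Psma6 (-0.85 ± 0.08) and Psma7 (-0.53 ± 0.10), whereas at P3 Psma1 to Psma7 were all called higher, by 0.32 (Psma4) to 0.58 (Psma5). No alpha subunit was called in newborn mice, or 3 lower without replicate 1 of foot, and Psma8 alone was called at P3.

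Psma6, a subunit of this ring, changed the most between the ages. In jerboa foot it was at 19.7, 22.7 and 24.2 CPM at P0 and at 39.2, 40.5 and 43.5 CPM at P3. In jerboa forelimb it was at 41.5, 39.0 and 39.6 CPM at P0 and at 30.4, 33.7 and 33.3 CPM at P3. The foot libraries were thus all below the forelimb libraries at P0 (adjusted p = 1.4e-09) and all above them at P3 (0.34 ± 0.08, adjusted p = 0.00036). The change of the limb difference with age was 1.19 ± 0.11 (adjusted p = 6.4e-08), in a comparison added after the data were seen. Psma6 was named for its small p at P0, and its P0 values enter that comparison. In the mouse Psma6 was at 142 ± 13.5 CPM in foot against 144 ± 5.66 CPM in forelimb at P0 and at 177 ± 8.45 and 176 ± 9.26 CPM at P3, so that the groups overlapped at both ages. The difference between species was -0.83 ± 0.11 at P0 and 0.33 ± 0.10 at P3, both called.

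Psma5 showed the largest difference of the ring at P3. Its jerboa foot libraries were at 62.5, 63.0 and 63.2 CPM and its forelimb libraries at 41.2, 42.1 and 43.0 CPM at that age, without overlap (0.58 ± 0.12, adjusted p = 0.00018). At P0 the groups overlapped, with 71.2 ± 3.76 CPM in foot against 66.6 ± 12.3 CPM in forelimb, and the forelimb level fell by 0.66 ± 0.12 between the ages (adjusted p = 0.00011). Its difference between species at P3 was 0.43 ± 0.17 (adjusted p = 0.040) and fell short of the threshold without any of 11 of the 12 libraries, with adjusted p up to 0.074.

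Psma8, the testis form that replaces Psma7 in germ cells, had 0 or 1 reads in each jerboa group, where expression and gene model cannot be told apart. In the mouse it had 123 foot reads and 53 forelimb reads at P3 (0.904 ± 0.212 against 0.351 ± 0.0869 CPM, log2 fold change 1.35 ± 0.36, adjusted p = 0.0037). Per kilobase of transcript it reached 0.534 CPM in mouse foot at P3, where Psma7 was at 128 CPM per kilobase.

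The beta ring was higher in jerboa foot at both ages. Its sums were 1263, 1303 and 1328 CPM in foot against 1128, 1063 and 1064 CPM in forelimb at P0, and 1351, 1362 and 1308 CPM against 976, 979 and 998 CPM at P3. The groups overlapped at neither age. In jerboa 5 of 7 beta subunits were called higher at P0 and all 7 at P3, and 0 were called lower, where 31.2% and 35.9% of all genes were called higher and 34.8% and 32.1% lower. In the mouse 2 were called higher and 2 lower at P0 (2 and 4 without replicate 1 of foot), against 29.8% and 29.3% of all genes. At P3 1 was higher (Psmb2) and 1 lower (Psmb7), against 27.3% and 25.3%.

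Psmb2, a non-catalytic beta subunit encoded on mouse chromosome 4 (126677630 to 126709714, GRCm38, plus strand), had the largest difference of all standard subunits in jerboa at P3. It was at 152, 150 and 138 CPM in jerboa foot against 87.3, 83.7 and 79.3 CPM in forelimb (0.81 ± 0.07, adjusted p = 1.2e-10). The libraries did not overlap at P0 either, at 165, 187 and 179 CPM in foot against 91.9, 94.7 and 102 CPM in forelimb (0.88 ± 0.07). Newborn mice showed it too, with 161, 138 and 139 CPM in foot against 95.3, 88.9 and 84.1 CPM in forelimb (0.71 ± 0.07), but mice at P3 had only 104 ± 2.66 against 93.4 ± 0.672 CPM (0.16 ± 0.07, adjusted p = 0.047). Psmb2 thus differed between species at P3 (0.65 ± 0.09, adjusted p = 3.3e-06) but was not called at P0 (0.17 ± 0.09, adjusted p = 0.13). The small mouse difference at P3 was not called when any 1 library was left out, with adjusted p from 0.055 to 0.13.

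The catalytic subunits Psmb5, Psmb6 and Psmb7 carry the chymotrypsin-like, caspase-like and trypsin-like sites. In jerboa foot Psmb5 was at 269, 265 and 267 CPM at P0 and 276, 288 and 280 CPM at P3, against 235, 222 and 235 CPM and 230, 224 and 235 CPM in forelimb. The foot libraries were above all forelimb libraries at both ages (0.21 ± 0.07, adjusted p = 0.0093, and 0.29 ± 0.07, adjusted p = 0.00049). Mouse Psmb5 overlapped between the muscles at both ages, at 25 ± 0.636 CPM in foot against 25.8 ± 1.82 CPM in forelimb at P3, and differed from jerboa at P3 (0.33 ± 0.10, adjusted p = 0.0067). Psmb7 was at 83.0, 83.4 and 80.6 CPM in jerboa foot against 59.3, 63.9 and 61.6 CPM in forelimb at P3 (0.42 ± 0.08), and at 151, 149 and 157 CPM in mouse foot against 172, 175 and 188 CPM in mouse forelimb (-0.23 ± 0.08, adjusted p = 0.015). The 2 species therefore lay on opposite sides, and the difference was 0.65 ± 0.11 (adjusted p = 3.0e-05). The mouse call was lost without replicate 2 of foot (adjusted p = 0.052) or replicate 3 of forelimb (adjusted p = 0.074) at P3. GENCODE M21 lists 4 pseudogenes named after Psmb5, Psmb6 and Psmb7, so reads of these genes may have been shared with near-identical copies and their levels are uncertain. Pseudogenes under other names were not searched for, so the same may hold for other members.

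**Figure D2:**
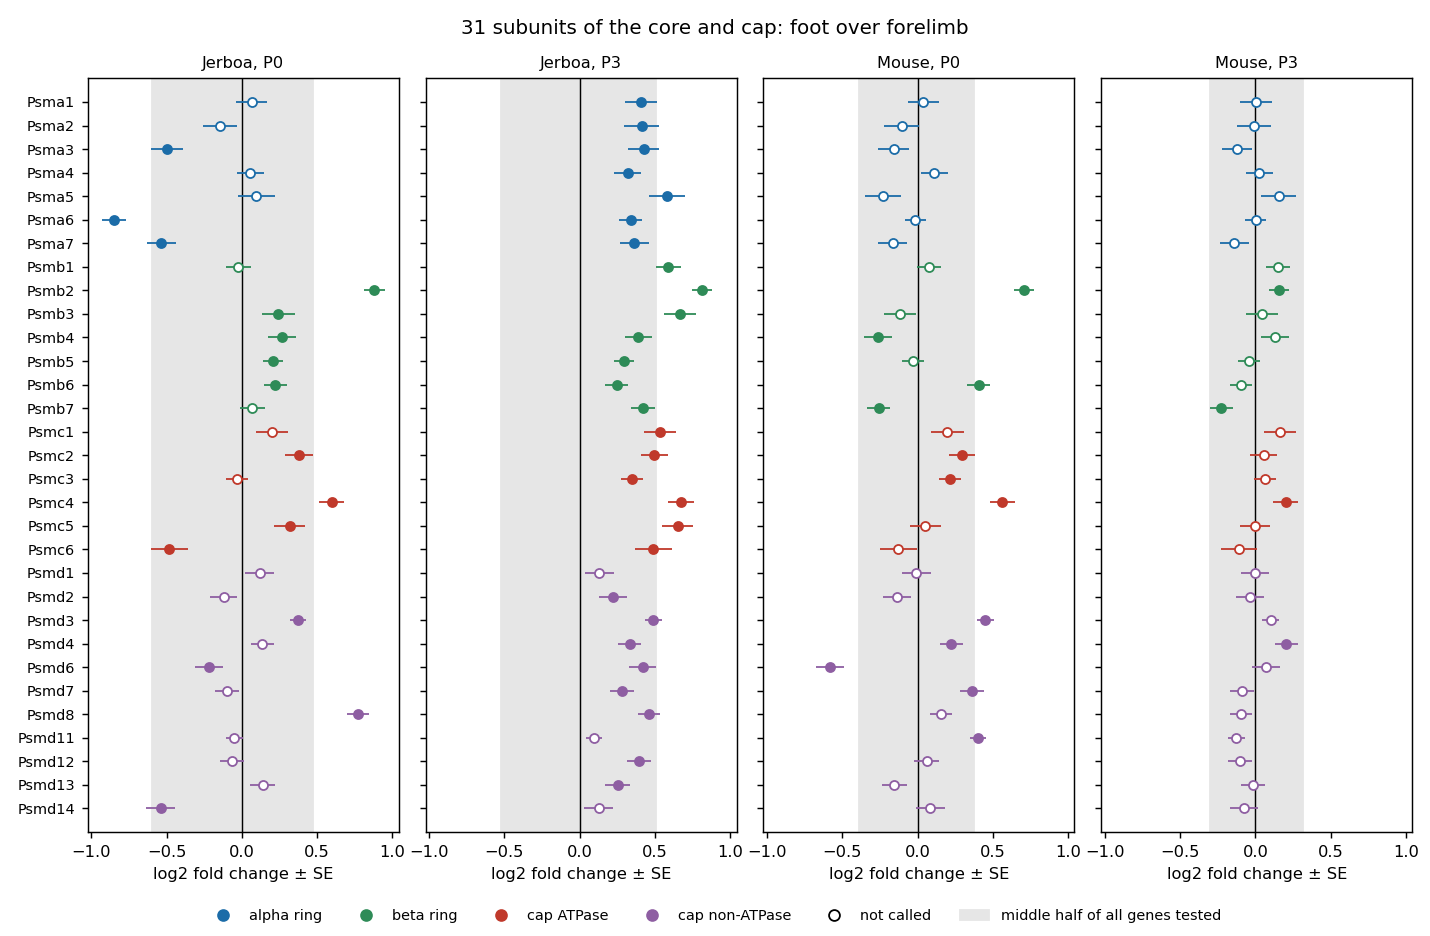
Log2 fold change of foot over forelimb (x axis, ± SE) for the 31 standard subunits (rows) in each species and age, coloured by class. Filled points had an adjusted p under 0.05 in edgeR's quasi-likelihood test, open points did not, and the grey band spans the quartiles of all genes tested. In jerboa at P3 all 31 points lie right of 0, while in mouse at P3 they lie between -0.23 and 0.21.

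The immune catalytic subunits, which replace the standard ones under interferon and in immune cells, differed among themselves. Psmb8 and Psmb9 neighbour each other on mouse chromosome 17 (34197721 to 34201454 and 34181987 to 34187764, GRCm38). Psmb8 had 0 reads in newborn jerboa foot and 5 in newborn forelimb, too few for a fold, and 9 against 18 reads at P3. Psmb9 had 0 reads in newborn jerboa foot and 9 in forelimb, and 16 against 21 reads at P3. With 3 foot reads over the group, the limit used for a count of 0, it would be 1.73-fold lower in newborn foot. That value leaves out the counting error of the 9 forelimb reads and is no lower bound. By edgeR both genes were called lower in newborn jerboa foot than in forelimb, and both higher in jerboa foot at P3 than at P0. These calls rest on the few reads above. The newborn call of Psmb8 was lost by DESeq2 (adjusted p = 0.12) and by limma voom (adjusted p = 0.29). With so few reads no difference between the muscles at P3 was detectable (adjusted p = 0.18 for Psmb8 and 0.74 for Psmb9, by edgeR).

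In the mouse Psmb8 was lower in foot. It was at 2.07, 1.83 and 1.88 CPM in mouse foot against 2.96, 2.61 and 3.01 CPM in forelimb at P0, and at 2.64, 2.80 and 2.86 CPM against 3.64, 4.88 and 5.03 CPM at P3. The muscles overlapped at neither age (-0.57 ± 0.20, adjusted p = 0.018, and -0.71 ± 0.19, adjusted p = 0.0028), although the P0 call was lost without replicate 2 or 3 of foot or replicate 3 of forelimb (adjusted p from 0.051 to 0.059). Psmb9 was not called in mouse at either age. Per kilobase of transcript, the immune subunits of mouse forelimb at P3 were at 2.77 (Psmb8), 1.45 (Psmb9) and 10.3 CPM (Psmb10), against 28.6 (Psmb5), 247 (Psmb6) and 154 CPM (Psmb7) for the subunits they replace.

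Psmb10, the third immune subunit, was higher in foot in jerboa, as the beta ring was. It was at 8.76, 8.57 and 7.86 CPM in jerboa foot against 5.42, 5.65 and 6.02 CPM in forelimb at P0 (0.56 ± 0.15, adjusted p = 0.0016), without overlap. At P3 it was at 5.15, 6.15 and 4.73 CPM against 4.82, 3.02 and 4.01 CPM, which overlapped (0.44 ± 0.15, adjusted p = 0.012). That P3 call was lost without replicate 2 of jerboa foot (adjusted p = 0.094) or replicate 2 of jerboa forelimb (adjusted p = 0.11). In mouse Psmb10 was not called at either age, and the species differed by 0.70 ± 0.19 at P0 and 0.67 ± 0.19 at P3 (adjusted p = 0.0043 and 0.0060).

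Macrophages and lymphocytes also express these subunits. The 10 macrophage markers summed to 170 to 245 CPM in jerboa foot against 439 to 463 CPM in forelimb at P0, and to 304 to 314 CPM against 434 to 515 CPM at P3. In mouse they summed to 279 to 301 CPM in foot against 332 to 372 CPM in forelimb at P0, and to 341 to 378 CPM against 364 to 436 CPM at P3. At P3, 1 of the 10 was called higher in foot and 6 lower in jerboa, against 35.9% and 32.1% of all genes. In mouse at P3, 1 was higher and 2 lower, against 27.3% and 25.3%. The lymphocyte markers summed to 0.284 to 12.7 CPM over all libraries, with group means of at most 0.128 CPM for Cd3e and 0.274 CPM for Cd79a. Their part in the immune subunit levels was not tested.

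The 6 ATPases of the cap had the largest difference of the 4 classes of standard subunits in jerboa at P3. They summed to 1312, 1363 and 1396 CPM in foot against 939, 970 and 917 CPM in forelimb, without overlap, a difference of 44.1% in the means. All 6 were called higher at P3, by 0.35 (Psmc3) to 0.67 (Psmc4), and all 6 differed from the mouse, by 0.28 to 0.65. At P0 3 were called higher and 1 lower in jerboa, the lower one being Psmc6 (-0.48 ± 0.12), and 3 were called higher and 0 lower in mouse (1 and 1 without replicate 1 of foot).

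Psmc4 had the largest log2 fold change of the ring in each limb comparison of both species. In jerboa at P3 others came close, as the upper quartile of the ring was 0.62. It was at 281, 286 and 252 CPM in jerboa foot against 172, 179 and 190 CPM in forelimb at P0, and at 263, 279 and 266 CPM against 170, 172 and 164 CPM at P3. Neither age showed overlap (0.60 ± 0.08 and 0.67 ± 0.08). In the newborn mouse it was at 196, 143 and 143 CPM in foot against 109, 108 and 108 CPM in forelimb (0.56 ± 0.08), with replicate 1 of foot above the rest, and at P3 at 128, 137 and 137 CPM against 116, 112 and 122 CPM (0.20 ± 0.08, adjusted p = 0.047). The P3 call in mouse was lost without any of 4 of the 6 libraries (adjusted p up to 0.15). The species differed at P3 by 0.47 ± 0.12 (adjusted p = 0.0019), and not detectably at P0 (0.03 ± 0.12, adjusted p = 0.86).

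Among the 11 non-ATPase subunits of the cap, 8 were called higher in jerboa foot at P3 and 0 lower, and their sums were 2466, 2492 and 2504 CPM in foot against 2005, 2050 and 1989 CPM in forelimb. This difference of 23.5% was the smallest of the 4 classes. At P0 2 were called higher (Psmd3 and Psmd8) and 2 lower (Psmd6 and Psmd14). In the mouse 4 were called higher and 1 lower at P0, and Psmd4 alone was called at P3. Without replicate 1 of foot the P0 counts were 3 and 4, and Psmd4 was no longer called there (0.22 with it, 0.067 without, adjusted p = 0.29 by edgeR).

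Psmd3, a scaffold subunit of the lid, was at 254, 242 and 246 CPM in jerboa foot against 180, 173 and 175 CPM in forelimb at P3. The libraries were far apart relative to their spread (0.49 ± 0.06, adjusted p = 2.9e-08), as they were at P0 (295 ± 2.88 against 228 ± 11.8 CPM, 0.37 ± 0.06). The newborn mouse showed a like difference (0.45 ± 0.06), but at P3 its levels were 153, 159 and 157 CPM in foot against 148, 141 and 147 CPM in forelimb (0.10 ± 0.06, adjusted p = 0.13). Psmd8, another lid subunit, was at 352, 383 and 370 CPM in jerboa foot against 215, 216 and 215 CPM in forelimb at P0 (0.77 ± 0.07, adjusted p = 1.2e-09), and at 293, 303 and 275 CPM against 208, 208 and 216 CPM at P3 (0.46 ± 0.07). It was not called in mouse at either age, and the species differed by 0.62 ± 0.10 at P0 and 0.56 ± 0.10 at P3.

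Psmd4 encodes a receptor that binds ubiquitin chains, Psmd14 the enzyme that cuts them off the substrate, and Psmd11 a subunit that holds the lid and the base together. Psmd4 was at 313, 285 and 288 CPM in jerboa foot against 236, 236 and 232 CPM in forelimb at P3 (0.33 ± 0.08), and was also called in mouse (162, 169 and 162 CPM against 141, 139 and 148 CPM, 0.21 ± 0.08, not called without 3 of the 6 libraries, adjusted p up to 0.091). The 2 species did not differ detectably in it at P3 (0.13 ± 0.11, adjusted p = 0.35). Psmd14 was at 85.4, 90.6 and 103 CPM in newborn jerboa foot against 133, 144 and 130 CPM in newborn forelimb, without overlap (-0.54 ± 0.10), and at 121, 130 and 129 CPM against 115, 121 and 113 CPM at P3 (0.13 ± 0.09, adjusted p = 0.24). Psmd11 was not called in jerboa at either age. In the newborn mouse it was at 101, 97.7 and 96.5 CPM in foot against 75.8, 73.5 and 74.0 CPM in forelimb (0.40 ± 0.06), and at P3 at 87.9, 88.4 and 91.1 CPM against 97.6, 95.8 and 98.5 CPM, a reversed order that was not called (-0.13 ± 0.05, adjusted p = 0.055).

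The activators, which open the core without the ubiquitin-binding cap, and the inhibitor Psmf1 each went their own way. Psme1 and Psme2 encode the 2 chains of an interferon-responsive activator and lie close together on mouse chromosome 14 (55578123 to 55581529 and 55587441 to 55591113, GRCm38). Psme2 was at 156, 153 and 137 CPM in jerboa foot against 102, 98.3 and 97.0 CPM in forelimb at P0, and at 144, 147 and 147 CPM against 83.3, 95.2 and 90.5 CPM at P3. Foot was above forelimb in every library at both ages (0.58 ± 0.11, adjusted p = 4.0e-05, and 0.71 ± 0.11, adjusted p = 2.8e-06). Psme1 followed at P0 (118, 113 and 104 CPM against 95.4, 87.9 and 92.1 CPM, 0.28 ± 0.09) and was not called at P3 (0.18 ± 0.09, adjusted p = 0.068). Neither was called in mouse, where Psme2 was at 54.2 ± 0.928 CPM in foot against 53.6 ± 2.93 CPM in forelimb at P3, and the species differed in Psme2 at P0 (0.64 ± 0.15) and P3 (0.69 ± 0.15).

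Psme3, the nuclear activator of ubiquitin-independent cleavage, had the largest difference of all 48 genes in newborn mice. It was at 127, 142 and 148 CPM in newborn mouse foot against 71.8, 79.1 and 72.0 CPM in forelimb, without overlap (0.90 ± 0.06, adjusted p = 5.7e-12). By P3 the mouse values were 96.0, 96.3 and 95.7 CPM in foot against 88.8, 87.4 and 92.0 CPM in forelimb (0.10 ± 0.06, adjusted p = 0.15). Newborn jerboa showed 57.9, 60.9 and 63.9 CPM in foot against 56.3, 60.4 and 60.2 CPM in forelimb, which overlapped, so that the species differed by -0.86 ± 0.09 at P0 (adjusted p = 1.8e-08). In jerboa at P3 Psme3 was called slightly higher in foot (0.15 ± 0.06, adjusted p = 0.034), a call lost without 4 of the 6 libraries (adjusted p up to 0.13).

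Psme4, an activator known for its role in histone degradation in the testis, was lower in foot in all 4 comparisons. It was at 118, 140 and 131 CPM in jerboa foot against 190, 188 and 187 CPM in forelimb at P0, and at 141, 141 and 157 CPM against 178, 181 and 168 CPM at P3. In mouse it was at 90.8, 97.0 and 103 CPM against 142, 153 and 153 CPM at P0, and at 137, 139 and 148 CPM against 169, 176 and 169 CPM at P3. No pair of groups overlapped, and the log2 fold changes were -0.54 ± 0.07, -0.26 ± 0.06, -0.62 ± 0.07 and -0.28 ± 0.06. The species did not differ detectably at either age (0.08 ± 0.09 and 0.02 ± 0.09).

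Psmf1, the inhibitor of the core, reversed its order between the ages in jerboa. It was at 48.4, 51.6 and 52.6 CPM in jerboa foot against 37.5, 38.7 and 41.0 CPM in forelimb at P0, and at 35.9, 36.9 and 36.8 CPM against 49.0, 46.6 and 48.4 CPM at P3. The foot was above the forelimb without overlap at P0 (0.38 ± 0.06, adjusted p = 1.1e-05) and below it without overlap at P3 (-0.39 ± 0.06, adjusted p = 5.2e-06), opposite to 28 standard subunits at that age. Mouse foot was higher at P0 (28.7, 26.3 and 25.5 CPM against 19.1, 18.3 and 19.7 CPM, 0.49 ± 0.06) and overlapped with forelimb at P3 (0.08 ± 0.06, adjusted p = 0.28). The difference between species at P3 was -0.48 ± 0.09 (adjusted p = 8.7e-05).

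**Figure D3:**
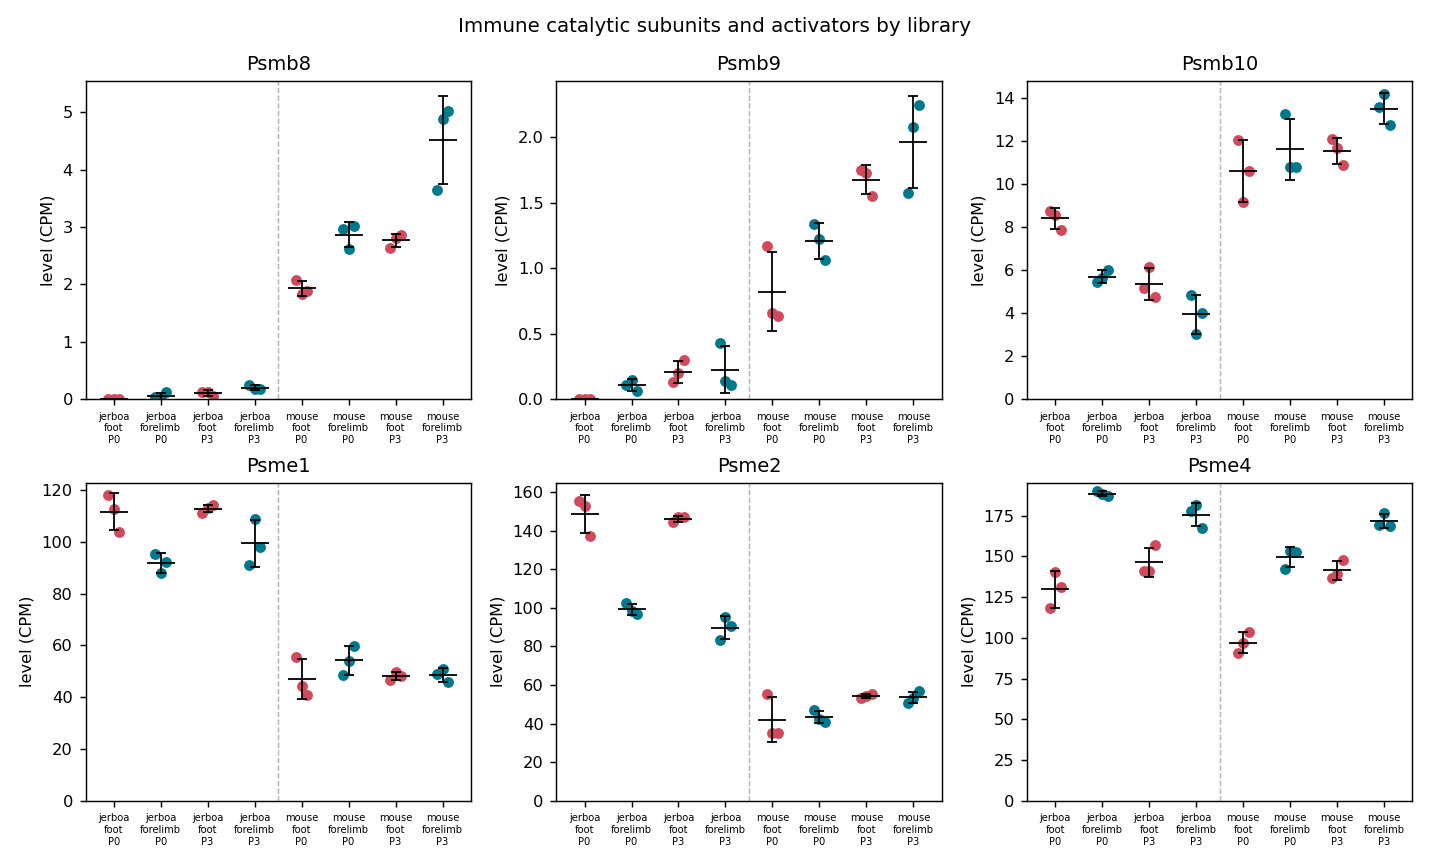
Level in CPM of the immune catalytic subunits Psmb8, Psmb9 and Psmb10 and the activators Psme1, Psme2 and Psme4 in each of the 24 libraries, with jerboa left and mouse right of the dashed line. Points are libraries (red for foot, teal for forelimb), the long bar is the mean and the whiskers are the SD (n = 3). Psme4 is lower in foot in all 4 pairs of groups, Psme2 is higher in foot in jerboa, and Psmb8 is at most 0.246 CPM in the jerboa libraries.

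The assembly factors, which chaperone the rings and leave before the complex is finished, included Psmd10, which differed between the jerboa muscles at both ages. Of the 7, 3 were called higher and 3 lower in newborn jerboa foot, and 5 higher and 0 lower at P3, against 31.2% higher and 34.8% lower of all genes at P0 and 35.9% and 32.1% at P3. The mouse had 3 higher and 0 lower at P0 (2 and 0 without replicate 1 of foot), against 29.8% and 29.3%, and 5 higher and 0 lower at P3, against 27.3% and 25.3%. Of the 7, Psmd10 (positive) and Psmd9 (negative) were called for the species difference at P3.

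Psmd10, also known as gankyrin, chaperones the ATPase ring and is encoded on the mouse X chromosome. It was at 13.7, 13.2 and 19.7 CPM in jerboa foot against 8.10, 6.62 and 7.0 CPM in forelimb at P0, and at 18.5, 20.1 and 21.4 CPM against 9.76, 10.3 and 10.9 CPM at P3. The foot libraries were above the forelimb libraries at both ages (1.10 ± 0.13, adjusted p = 7.2e-08, and 0.95 ± 0.12, adjusted p = 1.9e-07). Mouse Psmd10 was not called, at 25.5 ± 2.97 against 27.4 ± 2.89 CPM at P0 and 28.8 ± 1.78 against 25.6 ± 0.830 CPM at P3, and the species differed by 1.20 ± 0.17 and 0.78 ± 0.16. Psmd9, a second ATPase chaperone, was lower in newborn jerboa foot (18.7, 18.2 and 18.3 CPM against 24.7, 26.7 and 22.5 CPM, -0.42 ± 0.11) and higher in newborn mouse foot (45.4, 38.9 and 33.4 CPM against 29.8, 29.1 and 27.5 CPM, 0.44 ± 0.10).

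Psmg1, a chain of the dimer that builds the alpha ring together with Psmg2, was higher in foot in all 4 comparisons. It was at 75, 87.0 and 76.2 CPM in jerboa foot against 54.3, 48.9 and 54.0 CPM in forelimb at P0, and at 80.7, 85.0 and 80.0 CPM against 48.8, 45.4 and 54.2 CPM at P3. In mouse it was at 28.8, 24.7 and 25.8 CPM against 15.5, 17.7 and 15.5 CPM at P0, and at 21.4, 22.9 and 23.6 CPM against 16.6, 14.8 and 15.9 CPM at P3. No pair of groups overlapped (0.60 ± 0.08, 0.73 ± 0.08, 0.70 ± 0.08 and 0.52 ± 0.08), and the species did not differ detectably (-0.10 ± 0.11 at P0 and 0.21 ± 0.11 at P3). Its partner Psmg2 was higher in jerboa foot at both ages (0.62 ± 0.10 and 0.45 ± 0.10), and in mouse foot at P3 (0.56 ± 0.09) but not at P0 (-0.10 ± 0.10, adjusted p = 0.40). Psmc3ip, which is no subunit, was called higher in newborn mouse foot (12.7, 10.9 and 8.12 CPM against 5.11, 8.41 and 3.99 CPM, 0.87 ± 0.21) and in jerboa foot at P3 (0.64 ± 0.25, adjusted p = 0.026).

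**Figure D4:**
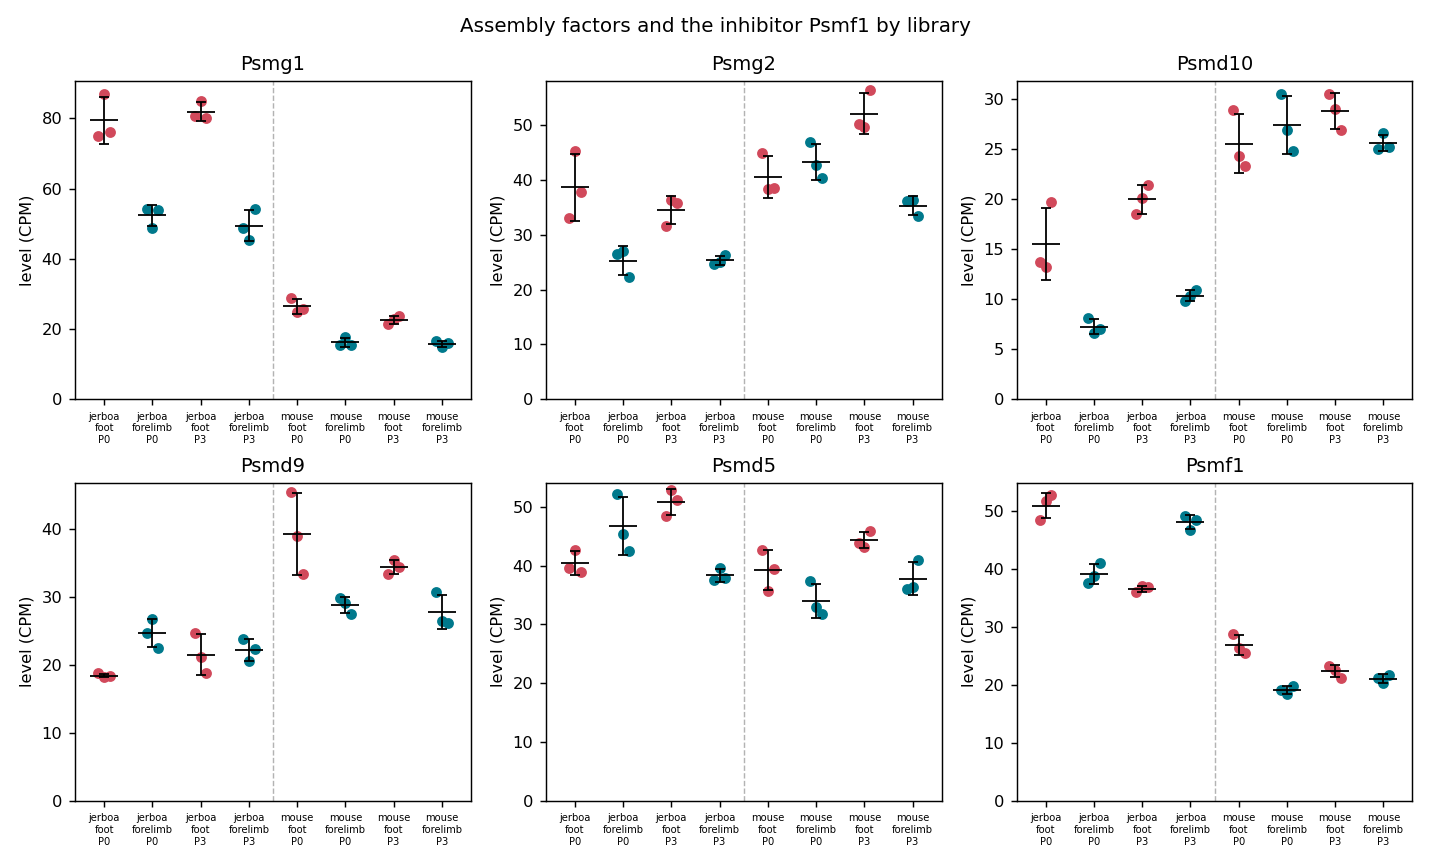
Level in CPM of 5 assembly factors and of the inhibitor Psmf1 in each of the 24 libraries, with jerboa left and mouse right of the dashed line. Points are libraries (red for foot, teal for forelimb), the long bar is the mean and the whiskers are the SD (n = 3). Psmg1 is higher in foot in all 4 pairs of groups, Psmd10 was called higher in foot in jerboa only, and the order of Psmf1 in jerboa is opposite at P0 and P3.

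Levels were also followed from P0 to P3 within each muscle. All P0 samples are described as trimmed read files and all P3 samples as original ones, so age and that difference cannot be told apart, while each limb comparison within an age sets libraries described alike side by side. In jerboa forelimb 0 of the 31 standard subunits were called higher at P3 and 15 lower, against 22.5% and 20.6% of all genes (43.2% in either direction), with a median log2 fold change of -0.22. In 19 of the 31 the 3 forelimb libraries at P3 were all below the 3 at P0, as they were for 25.1% of all genes. In jerboa foot 13 were called higher and 3 lower with age, against 27.0% and 20.3% of all genes (47.3% in either direction), and the median was 0.14. Genes that fell in forelimb and rose in foot numbered 6. In the mouse, 13 were called higher and 6 lower in foot, against 29.1% and 28.5% of all genes (57.6% in either direction). In mouse forelimb 11 were called higher and 1 lower, against 26.0% and 25.4% (51.4% in either direction). The P3 libraries lay all above the P0 libraries for 15 standard subunits in jerboa foot, 8 in mouse foot and 14 in mouse forelimb, against 29.4%, 32.0% and 32.2% of all genes. They lay all below for 4, 6 and 2, against 21.4%, 31.4% and 30.7%. The mouse foot counts were 19 higher and 3 lower without replicate 1 of P0, and 7 or 8 higher without replicate 2 or 3 of P0 or replicate 3 of P3. The mouse forelimb count of lower genes was 2 without replicate 3 of P0.

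Summed over the standard subunits, jerboa forelimb fell by 12.5% between the ages while jerboa foot stood 7.40% higher at P3, mouse foot 4.45% and mouse forelimb 10.9%. Without replicate 1 of mouse foot at P0, mouse foot stood 14.2% higher at P3. The steepest falls in jerboa forelimb were those of Psma5 (-0.66 ± 0.12), Psma7 (225, 215 and 212 CPM at P0 to 140, 144 and 138 CPM at P3, -0.63 ± 0.10) and Psmc6 (-0.54 ± 0.12). The steepest rises in jerboa foot were those of Psma6 (0.89 ± 0.08) and Psma3 (66.7, 71.8 and 80.1 CPM at P0 to 107, 116 and 118 CPM at P3, 0.64 ± 0.11). Comparing the limb difference between the ages was added after the data were seen. The change of the limb difference with age was called positive for 14 standard subunits and negative for 1 (Psmd8) in jerboa, against 16.2% and 12.1% of all genes. In mouse it was called positive for 2 and negative for 6, against 17.2% and 14.3% of all genes, and without replicate 1 of mouse foot at P0 it was positive for 5 and negative for 5. The positive mouse count was 1 without replicate 2 or 3 of foot or replicate 1 of forelimb at P0. The call of Psmd8 in jerboa was lost without replicate 2 of foot at P0, replicate 3 of foot at P3 or replicate 3 of forelimb at P3.

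Among the other members, Psmg4, a factor of alpha ring assembly, was lower at P3 in all 4 muscles, by -0.57 ± 0.11 in jerboa foot, -0.91 ± 0.11 in jerboa forelimb, -0.41 ± 0.12 in mouse foot and -0.76 ± 0.12 in mouse forelimb. Psmd3 was also lower at P3 in all 4, from -0.25 ± 0.06 in jerboa foot to -0.63 ± 0.06 in mouse foot. Psmb10 fell with age in both jerboa muscles (-0.64 ± 0.15 and -0.53 ± 0.15) and was not called in mouse. Mouse Psmb8 rose in foot (0.52 ± 0.20, not called without 4 of the 6 libraries) and in forelimb (0.66 ± 0.19), as did mouse Psmb9 (1.05 ± 0.30 in foot, and 0.70 ± 0.27 in forelimb, not called without 5 of the 6 libraries). The macrophage sums given above were also higher at P3 in mouse foot, and their part was not tested.

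**Figure D5:**
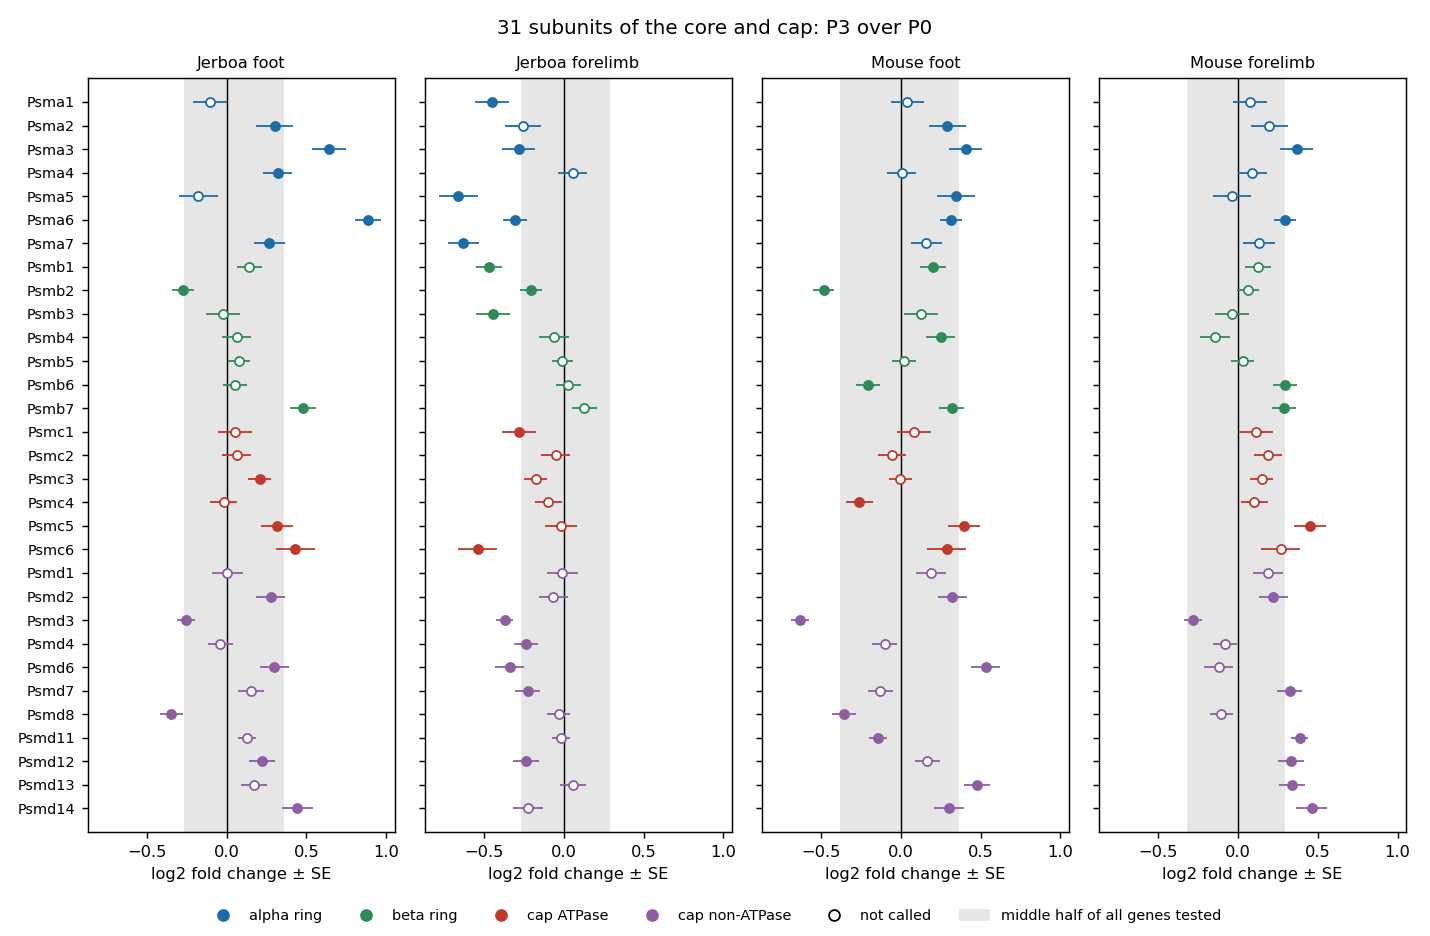
Log2 fold change of P3 over P0 (x axis, ± SE) for the 31 standard subunits (rows) in each muscle, coloured by class. Filled points had an adjusted p under 0.05 in edgeR's quasi-likelihood test, open points did not, and the grey band spans the quartiles of all genes tested. In jerboa forelimb every filled point lies left of 0, while in jerboa foot 13 filled points lie right of it.

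Genes that work with the proteasome were counted by list in jerboa at P3, where the 35.9% and 32.1% given above are the background. Of 20 proteasome partners measured, 9 were called higher and 6 lower, with a median of 0.16. Adrm1, a ubiquitin receptor of the cap outside the Psm symbols, was at 196 ± 9.98 CPM in foot against 117 ± 3.40 CPM in forelimb (0.75 ± 0.06), and Pomp, the chaperone that matures the beta ring, at 186 ± 13.2 against 149 ± 5.14 CPM (0.32 ± 0.11). Ecpas (-0.86 ± 0.07), an adaptor that tethers the proteasome, and the ligase Ube3c (-0.68 ± 0.06) were lower. Of 11 regulators of proteasome gene expression 1 was called higher (Keap1, 0.28 ± 0.07) and 5 lower. Nfe2l1, the transcription factor that raises subunit genes when proteasome activity falls, was not called (348 ± 11 against 379 ± 6.87 CPM, -0.12 ± 0.06, adjusted p = 0.072). The Maf family factors Maf (-1.35 ± 0.11), Mafg (-0.74 ± 0.14) and Mafk (-0.61 ± 0.21) and the atrophy regulators Foxo1 (-0.72 ± 0.08) and Foxo3 (-0.89 ± 0.09) were lower.

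Of the 18 ubiquitin ligases of muscle, 6 rose and 7 fell in the foot relative to the forelimb of jerboa at P3. Trim63, the atrophy ligase that targets myosin and its binding proteins, was at 131 ± 6.75 CPM in foot against 57.7 ± 1.02 CPM in forelimb (1.18 ± 0.13), and at 55.3 ± 3.24 against 71.5 ± 5.79 CPM in mouse (-0.37 ± 0.13), a difference between species of 1.55 ± 0.18. Fbxo32, the other classic atrophy ligase, was not called (0.18 ± 0.18, adjusted p = 0.40). The ubiquitin genes and their activating enzymes had 3 of 5 higher and 0 lower, with Ubb at 0.42 ± 0.12 and the activating enzyme Uba1 at 0.42 ± 0.06. Of 13 chaperones of misfolded protein 9 were higher and 2 lower, with Cryab at 1.12 ± 0.12 and Hspb1 at -0.64 ± 0.07, and of 15 autophagy genes 5 were higher and 4 lower. Of 14 interferon and antigen presentation genes 5 were higher and 4 lower, with B2m at 0.73 ± 0.11. In mouse at P3 the counts higher and lower were 3 and 5 for the partners, 0 and 8 for the regulators, 3 and 6 for the ligases and 2 and 2 for the chaperones. The shares of all genes there were 27.3% higher and 25.3% lower. Summed, the ubiquitin genes and activating enzymes were higher in foot at P3 in both species, without overlap. They were at 2150 to 2313 against 1475 to 1590 CPM in jerboa and at 1125 to 1259 against 937 to 972 CPM in mouse.

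The tissue around the fibres differed between the muscles as well. In jerboa at P3 the 8 muscle fibre markers summed to 28726 to 30628 CPM in foot against 57203 to 64957 CPM in forelimb, with 0 higher and 7 lower. The 5 tendon markers summed to 7235 to 8332 CPM in foot against 2397 to 3078 CPM in forelimb, with 5 higher and 0 lower, and the 6 cartilage markers had 4 higher and 1 lower. The endothelial markers summed to 185 to 208 CPM against 904 to 1042 CPM, with 0 of 6 higher and 6 lower, and 3 of 5 proliferation markers were higher. In the mouse at P3 the fibre markers were also lower in foot (1 higher and 7 lower of 8, 38500 to 41317 against 57563 to 62422 CPM), the tendon markers higher (5 of 5) and the endothelial markers lower (6 of 6). Of all genes at P3, 35.9% were called higher and 32.1% lower in jerboa foot, and 27.3% and 25.3% in mouse foot. The part of these cell types in the proteasome levels was not tested.

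Across the 24 libraries, the standard subunits varied together to different degrees. After centring on each species, the Pearson correlation of each with the mean of the others ran from 0.208 to 0.907, with a median of 0.668 against 0.0223 for all genes tested, a description of 24 libraries that share groups and depth. Among the members outside the standard set, Psme2 (0.845) was close to it, while Psme4 (-0.176) and Psmf1 (-0.243) were not. The genes outside the family most like the mean of the standard subunits were Hspa14 (r = 0.889), Mettl18 (0.887), Slc35b1 (0.885), Exosc9 (0.880) and Uxt (0.875). Slc35b1, a transporter of the endoplasmic reticulum, was 1.0 ± 0.08 higher in jerboa foot than in forelimb at P3 and 0.21 ± 0.08 in mouse.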

How the data were processed

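Total RNA of 24 libraries was sequenced, and the deposited files hold raw read counts per transcript identifier, unstranded and for each strand. Reads were aligned with STAR, per the submitters' processing notes, and the genome builds and annotations were not stated in the sources used. The count column of the strand that held 98.4% to 99.6% of stranded reads was used, and jerboa and mouse rows were joined by identifier. Symbols, transcript lengths and positions came from GENCODE M21 (GRCm38). Counts were filtered with filterByExpr, scaled by TMM and fitted in edgeR 4.0.16 (R 4.3.3) with 8 group coefficients and 16 residual degrees of freedom. The quasi-likelihood test was adjusted by Benjamini-Hochberg over 14448 genes. Alternatives were DESeq2 1.42.0, limma 3.58.1 voom, other scalings and filters, reads of either strand, a replicate block, only the libraries compared, and leaving out each library. The test was checked on simulated data in which few genes changed, in a single group. Far more genes were called here, so that check does not cover the scaling of such broad differences.

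The members and lists were chosen with earlier results of these data known. Comparisons of the limb difference between the ages, in both species, were added after the data were seen. Members shown in every library were, per class, the one with the smallest p in each limb comparison, the 2 with the smallest p for the species difference at each age, and a set of catalytic, activator and assembly genes. Psma3, Psma7, Psmc6, Psmd9, Psmg2, Psmg4, Psmc3ip, Pomp, Nfe2l1, Keap1, Mafg, Mafk, Trim63, Fbxo32, Ubb and B2m were chosen after their values were seen.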

Additional observations from a re-analysis of the deposited data

Results flagged for a closer look

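The limb difference itself differed between jerboa and mouse, by a test of that difference in edgeR, for 10 of the 23 tested members shown in full at P0 and for 13 of them at P3. Of all genes tested, 48.6% and 49.0% were called in these comparisons, and some of these members were chosen for a small p in them, so nothing is read from the counts. It was higher in jerboa for Psmb7 (0.33), Psmb10 (0.70), Psmd8 (0.62), Psmd10 (1.20), Psme1 (0.49) and Psme2 (0.64), and lower for Psma6 (-0.83), Psmd11 (-0.45), Psmd14 (-0.63) and Psme3 (-0.86), all on the log2 scale. At P3 it was higher in jerboa for Psma5 (0.43), Psma6 (0.33), Psmb2 (0.65), Psmb5 (0.33), Psmb7 (0.65), Psmb10 (0.67), Psmc4 (0.47), Psmd3 (0.39), Psmd8 (0.56), Psmd10 (0.78), Psmd11 (0.22) and Psme2 (0.69), and lower for Psmf1 (-0.48). In edgeR the P0 call of Psmb7 was lost with only the libraries compared (adjusted p = 0.063), with reads of either strand (0.069) and without any 1 of 4 libraries (0.052 to 0.065). The P3 call of Psmd11 was lost with upper quartile scaling (adjusted p = 0.074) and without replicate 3 of jerboa foot (0.054). Psma6 and Psmd11 had opposite signs at P0 and P3. The limb difference also changed with age, with 14 standard subunits higher at P3 and 1 lower in jerboa, against 16.2% and 12.1% of all genes, and 2 higher and 6 lower in mouse, against 17.2% and 14.3%. That comparison with age was added after the data were seen.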

How the results depend on the processing

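No single-gene result that was called under either setting changed sign. Without replicate 1 of mouse foot at P0, the members' median changed sign for mouse at P0 (0.045 to -0.090), for the species difference at P0 (-0.067 to 0.045) and for limb by age in mouse (-0.0036 to 0.11). Medians near 0 for mouse at P0 and limb by age in mouse also changed sign under other settings. Across the alternatives, 4223 single-gene results stayed on their side of the threshold, 147 lost their call and 67 gained one, and 1158 counts and medians stayed within their limit while 66 moved. With only the libraries compared, mouse at P3 had 15 members higher and 11 lower, with 7 standard subunits higher and 8 lower. There, 5 members were lower by limma voom, 5 standard subunits were higher with upper quartile scaling and 1 without a filter on low counts, and 2 were lower by DESeq2 and by limma voom. Standard subunits with a positive species difference at P0 numbered 2 with only the libraries compared and 3 with reads of either strand. With only the libraries compared, 2 standard subunits fell with age in mouse forelimb and 1 gained in the mouse limb by age comparison.

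Leaving out 1 library at a time gave, for mouse at P0, 3 to 17 members lower, a median of -0.090 to 0.074 and 1 to 12 standard subunits lower. For mouse at P3 it gave 5 to 8 members higher, 0 to 2 standard subunits higher and 0 to 1 lower. For the species difference it gave 7 to 19 members positive, a median of -0.12 to 0.045 and 2 to 14 standard subunits positive at P0, and 1 to 2 members negative at P3. For age in mouse foot it gave 11 to 26 members higher, 6 to 11 lower, a median of 0.091 to 0.27, and 7 to 19 standard subunits higher and 3 to 6 lower, and in mouse forelimb 1 to 2 standard subunits lower. For limb by age it gave, in jerboa, 1 to 2 members and 0 to 1 standard subunits lower, and in mouse 3 to 10 members higher, a median of -0.074 to 0.11 and 1 to 5 standard subunits higher. The cause of these moves was not tested.

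Foot and forelimb libraries with the same replicate number showed little common deviation, with r from -0.09 to 0.12. Of 12 pairs, 1 was over 0.1 and 3 were best with their own number. The labels do not say whether muscles of 1 animal share a number. A weak shared effect would not show in this check, so whether the numbers pair the samples was not settled. A replicate block left 1 standard subunit higher in mouse at P3 in place of 3 and moved no other count past its limit. In jerboa Psmb8, Psmb9, Psmb11 and Psma8 had at most 21 reads in a group, so any call in them rests on few reads. Whether depth, expression or gene models set this was not tested.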
